A study of Mus musculus with 64 samples.

Results

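The genes described are 9 that encode the scaffold of the cardiac sarcomere outside the myosin and actin filaments themselves. They form a named set: cardiac myosin-binding protein C (Mybpc3), titin (Ttn), the M-band proteins myomesin 1 and 2 (Myom1, Myom2), and the Z-disc or near-Z-disc proteins alpha-actinin 2 (Actn2), telethonin (Tcap), myozenin 2 (Myoz2), nebulette (Nebl) and myospryn (Cmya5). All 9 were found by Ensembl identifier among the 16913 genes of the count table, and all 9 were tested in every comparison. The hearts came from C57BL/6J mice that either carried a transgene for cTnT-delta160E, a form of cardiac troponin T (TG), which the study uses as a mouse model of hypertrophic cardiomyopathy, or did not (nTG). Mice of each sex were either sedentary, with no exercise, or ran high intensity interval training (HIIT). Training took 6 weeks with 3 treadmill sessions weekly, each lasting 31 minutes and holding 4 high and 4 low intervals, set to 85% and 50% of the mean speed that the group had reached in an exercise test. The 32 male libraries comprise 7 from nTG sedentary, 9 from TG sedentary, 8 from nTG trained and 8 from TG trained mice. The 32 female libraries comprise 8, 8, 10 and 6 in that order. These sizes come from the sample labels, whereas the series text gives 7 to 9 samples a group, and the difference could not be settled here. Each library is labelled as a biological replicate of heart tissue. The promoter that drives the transgene, the age of the mice and the part of the heart sampled are not given in the sources used here.

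A sarcomere is bounded by Z-discs, in which alpha-actinin crosslinks the actin filaments of neighbouring sarcomeres, and centred on the M-band, in which myomesins tie the myosin filaments together. Titin spans from the Z-disc, where telethonin caps its end, to the M-band, and acts as a molecular spring and a ruler for the thick filament. Myosin-binding protein C lies along the inner thick filament and tunes the myosin heads, and changes in its gene and in titin are known causes of human cardiomyopathy. Myozenin 2 (calsarcin 1) binds calcineurin and alpha-actinin at the Z-disc, nebulette is the small cardiac relative of nebulin that binds the ends of thin filaments there, and myospryn is a large protein at the edge of the Z-disc and the costamere.

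The promoters of titin, myosin-binding protein C and myozenin 2 are shown because they are the members whose windows held a match to the MEF2 motif, the site of a factor of muscle gene transcription, while below Mybpc3 was lower, Ttn higher and Myoz2 not called in TG hearts. Windows from RefSeq (GRCm38.p6) run from 250 bases before to 50 after an annotated start and were given for 7 of the 9 genes, in 10 windows, with none for Tcap and Myom2. The motif, searched on both strands, was found in 3 of these 10 windows, each of another gene, and in 3.19% of all 32851 windows. It began 166 bases before the start in Ttn (chr2:76982498-76982797, minus strand), 90 bases before in Mybpc3 (chr2:91117894-91118193, plus strand) and 33 bases before in Myoz2 (chr3:123034938-123035237, minus strand). Capitals mark the motif match, and each sequence is read 5′ to 3′ in the direction of the gene.
Ttn: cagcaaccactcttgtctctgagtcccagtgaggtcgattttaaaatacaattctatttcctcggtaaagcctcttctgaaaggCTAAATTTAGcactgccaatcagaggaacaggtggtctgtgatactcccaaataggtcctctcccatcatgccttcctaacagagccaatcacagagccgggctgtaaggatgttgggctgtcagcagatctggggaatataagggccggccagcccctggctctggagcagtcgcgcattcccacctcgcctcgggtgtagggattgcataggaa
Mybpc3: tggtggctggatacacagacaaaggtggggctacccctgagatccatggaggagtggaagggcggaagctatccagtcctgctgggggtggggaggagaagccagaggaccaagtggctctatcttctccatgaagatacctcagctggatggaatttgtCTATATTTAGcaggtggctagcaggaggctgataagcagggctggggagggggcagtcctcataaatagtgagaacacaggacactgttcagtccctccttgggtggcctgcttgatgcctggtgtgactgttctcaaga
Myoz2: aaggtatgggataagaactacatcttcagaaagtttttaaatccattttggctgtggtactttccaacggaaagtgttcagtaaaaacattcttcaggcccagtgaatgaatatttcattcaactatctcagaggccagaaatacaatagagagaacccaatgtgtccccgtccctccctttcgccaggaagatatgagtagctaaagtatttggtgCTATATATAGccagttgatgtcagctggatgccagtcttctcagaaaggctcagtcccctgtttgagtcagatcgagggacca
Of the other motifs searched on both strands, the CArG box was found in 2 of the 10 windows, of Myom1 and Nebl (1.63% of all windows), the M-CAT letters CATTCC in 2, of Nebl and Ttn (14.7%), and the E-box letters CACGTG in 2, of Actn2 and Nebl (7.15%). The GATA letters AGATAA were in 4 windows, of Cmya5, Myom1 and Nebl (11.2%), Nebl having 4 of the 10 windows. A match describes the letters only.

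Labels and depth were checked first. The columns of the gene table carried names that their sex-linked genes and Tnnt2, the gene of cardiac troponin T, contradicted in 32 and 30 of 64 libraries. Each library, as named in the table of long non-coding RNAs, was therefore matched to whichever gene column had the highest correlation with it over 389 autosomal transcripts. All 64 pairs were best in both directions, with r from 0.599 to 0.863 against at most 0.404 for the next best, and after this step 0 of 64 libraries contradicted the labelled sex or genotype. Neither check bears on the training label. In CPM, the usual scaling of a gene's counts to the library's total, Tnnt2 then lay between 2665 and 3428 CPM in the nTG libraries and between 6903 and 12001 CPM in the TG libraries, without overlap. Libraries held 34574813 to 67068562 gene counts, so that counting error was small beside the spread between mice. The 9 genes together took 5.52% to 8.20% of a library's counts. Levels below are CPM scaled by edgeR's TMM factors.

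Levels were compared between genes per kilobase of exon (GENCODE M21 union of exons), as CPM per kilobase over the 64 libraries. Mybpc3 was highest, with a median of 896 CPM per kilobase, followed by Tcap with 775 and Actn2 with 577. Ttn followed with 438, although it had by far the most counts, since these are spread over 116.8 kilobases of exon. Myom1 (median 169.7), Myom2 (152), Cmya5 (145) and Myoz2 (118) formed a middle range, and Nebl was lowest with 19.05 CPM per kilobase. Neighbours in this order were not always apart: Mybpc3 lay above Tcap in 49 of 64 libraries, Tcap above Actn2 in 55, Myom1 above Myom2 in 56 and Myom2 above Cmya5 in 37. Actn2 lay above Ttn in 62 of 64 libraries, and the remaining 3 neighbouring pairs held their order in 64 of 64. Within groups, the coefficient of variation between mice ran from 3.28% to 4.95% for Actn2 and from 5.61% to 30.6% for Tcap. That of Tcap was the highest of the 9 in each group except trained TG females, where it was 5.61% and that of Myom2 12.1%.

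**Figure D1:**
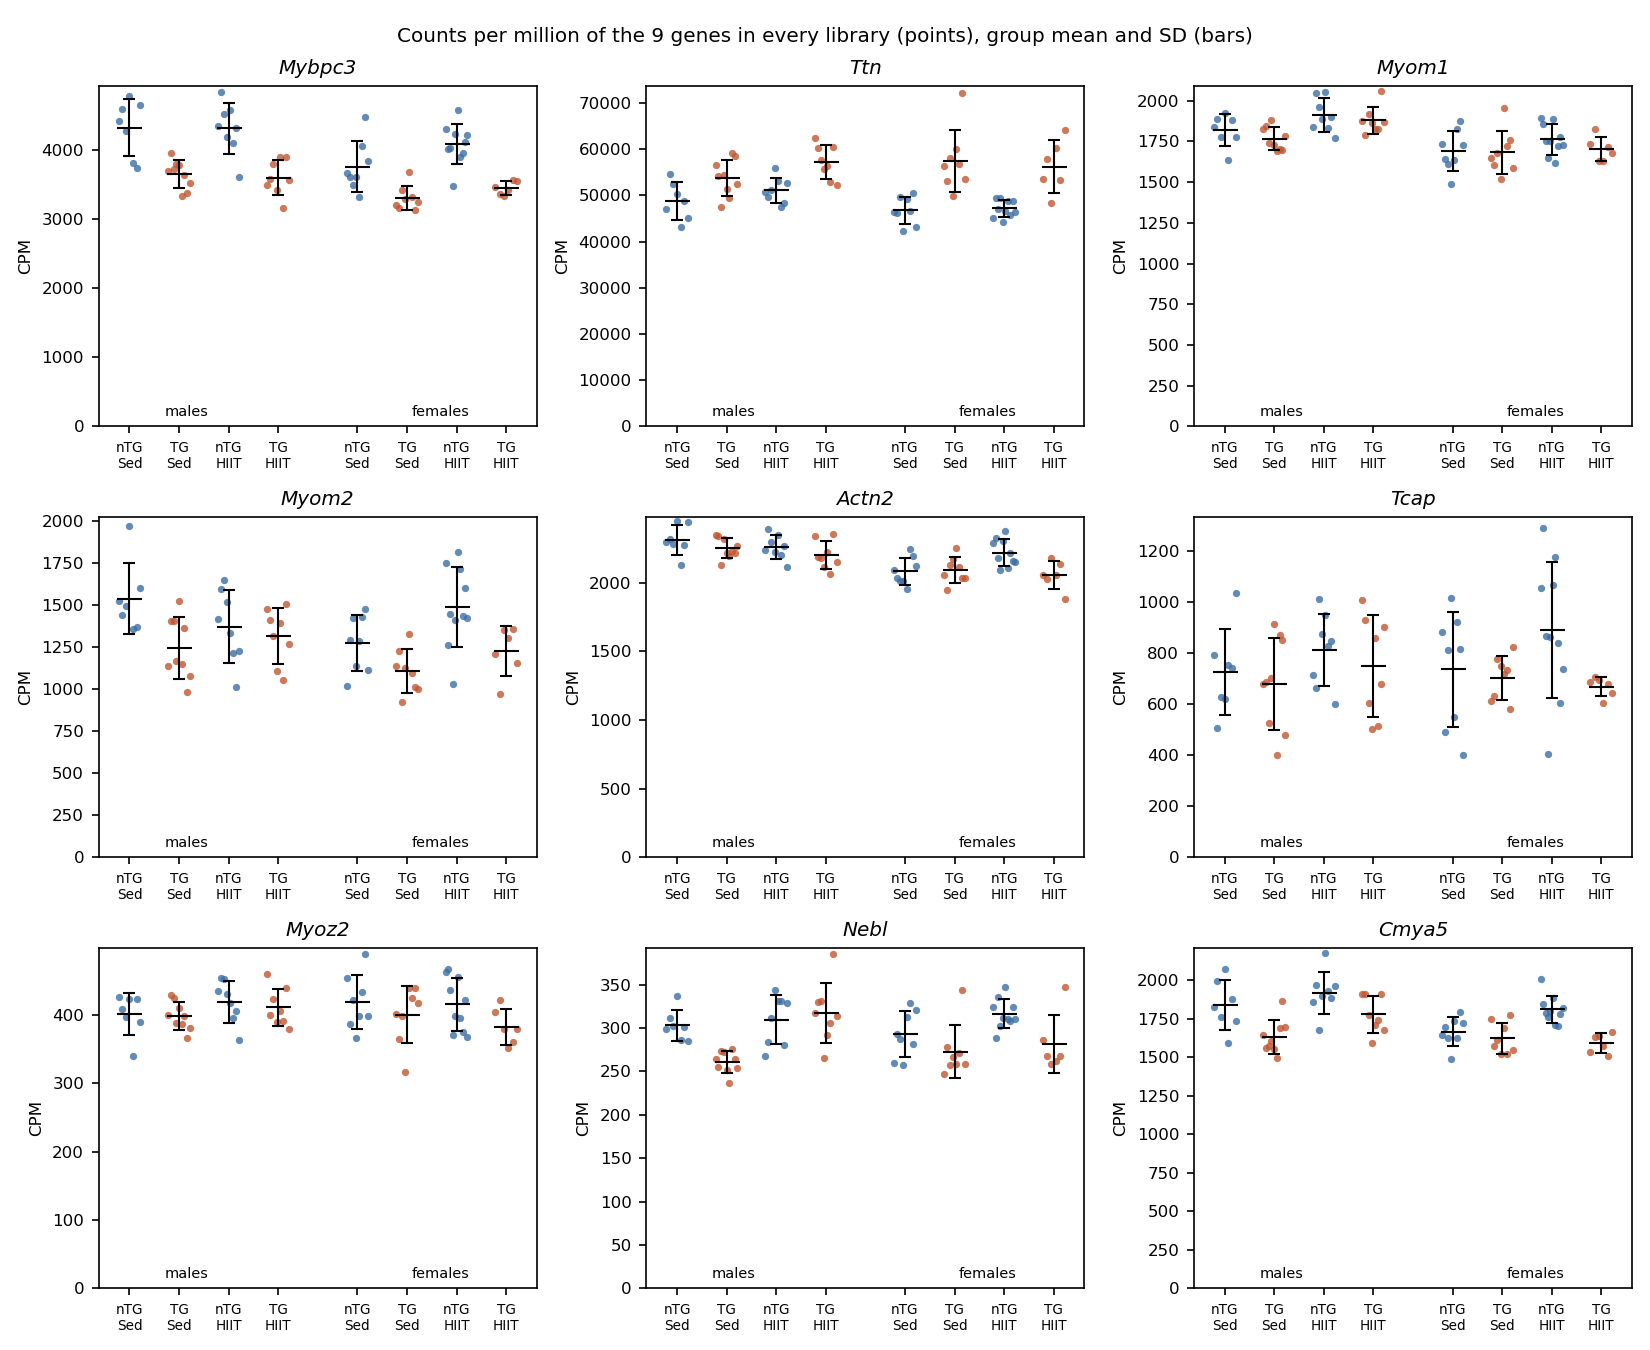
CPM (vertical axis, starting at 0) of each of the 9 genes in every library (points, blue for nTG and red for TG), by training and sex, with the group mean and SD as bars. Mybpc3 is lower and Ttn higher in the TG group of each of the 4 pairs, while Tcap spreads from 399.8 to 1288 CPM.

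The first question was what the transgene changes. Taken as the mean over the 4 strata of sex and training, Mybpc3, Myom2, Cmya5, Nebl and Actn2 were lower in TG hearts and Ttn was higher, while Myom1, Myoz2 and Tcap did not pass the threshold. In this comparison, 6 of the 9 genes were called at an adjusted p under 0.05 (edgeR quasi-likelihood F test, Benjamini-Hochberg over all genes), where 39% of all genes tested were called. The median log2 fold change of the 9 was -0.11, against 0.01 over all genes. The changes were small, from Mybpc3, which fell by 14.98%, to a rise of Ttn by 15.95%. Because heart tissue was sequenced in bulk, fewer cardiomyocytes and less RNA per cardiomyocyte cannot be told apart.

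Mybpc3 (ENSMUSG00000002100, chromosome 2, bases 91118144 to 91136516, plus strand, GRCm38) was the most lowered member by the size of its mean effect and the only one called in each of the 4 strata. In sedentary males it ranged from 3737 to 4775 CPM in nTG (median 4424) and from 3333 to 3950.8 CPM in TG (median 3694). Trained males had 3614 to 4839 CPM in nTG (median 4333) and 3162 to 3903 CPM in TG (median 3568). In sedentary females, nTG ran from 3324.5 to 4482.5 CPM (median 3634) and TG from 3134 to 3684 CPM (median 3264). The groups thus overlapped in these 3 strata, although 6 of 9, 5 of 8 and 5 of 8 TG libraries lay below every nTG library. Trained females ranged from 3477 to 4576 CPM in nTG (median 4075) and from 3331 to 3565 CPM in TG (median 3441), with 4 of 6 TG libraries below all nTG libraries. The mean log2 fold change was -0.23 ± 0.03 (SE, edgeR adjusted p 1.37e-10). Among males it was -0.25 ± 0.05 in sedentary (adjusted p 0.000519) and -0.26 ± 0.05 in trained mice (0.000374), and among females -0.18 ± 0.05 (0.02996) and -0.24 ± 0.06 (0.00137). The call in sedentary females was lost when any of 6 libraries was left out (sedentary TG replicates 2, 7 and 8 and sedentary nTG replicates 6, 7 and 8), with log2 values from -0.18 to -0.14, and when only the 2 groups were fitted (-0.18).

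Ttn (ENSMUSG00000051747, chromosome 2, bases 76703980 to 76982547, minus strand) moved the other way. Its 64 libraries lay between 42281 and 72167 CPM, so that 4.32% to 7.11% of a library's counts came from this gene alone. In sedentary females, nTG ranged from 42281 to 50507 CPM (median 46540.0) and TG from 49795 to 72167 CPM (median 56569.8). Here 7 of 8 TG libraries were above every nTG library, and the single value of 72167 CPM, in replicate 7, stood above the other TG libraries, which reached 59963 CPM. Trained females had 44243 to 49341 CPM in nTG (median 46834) and 48391 to 64232 CPM in TG (median 55618), with 5 of 6 TG libraries above all nTG libraries. In males the shift was smaller and the groups overlapped more, from 43214 to 54610.5 CPM against 47479 to 59117 CPM in sedentary mice (medians 48738 and 54271). Trained males ranged from 47444 to 55987 CPM in nTG (median 50889) and from 52284.5 to 62470.4 CPM in TG (median 57045). The mean log2 fold change was 0.21 ± 0.03 (edgeR adjusted p 4.19e-09), with 0.30 ± 0.05 in sedentary females (0.000228), 0.25 ± 0.06 in trained females (0.00107) and 0.16 ± 0.05 in trained males (0.0341). In sedentary males the value was 0.14 ± 0.06 and missed the threshold (adjusted p 0.0666). The difference of the sedentary effects between the sexes was 0.16 ± 0.08 and was not called (adjusted p 0.566). The call in trained males was lost without any of 7 libraries (trained nTG replicates 1, 2, 6 and 7, trained TG replicates 1, 2 and 7, values from 0.15 to 0.16). In sedentary males it was gained without any of 6 (sedentary TG replicates 3, 5, 6 and 9, sedentary nTG replicates 2 and 3, values from 0.15 to 0.17), and with DESeq2, median-of-ratios factors, scaling without mitochondrially encoded genes and Tnnt2, or genes with a mean of at least 50 counts (0.15 in each).

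**Figure D2:**
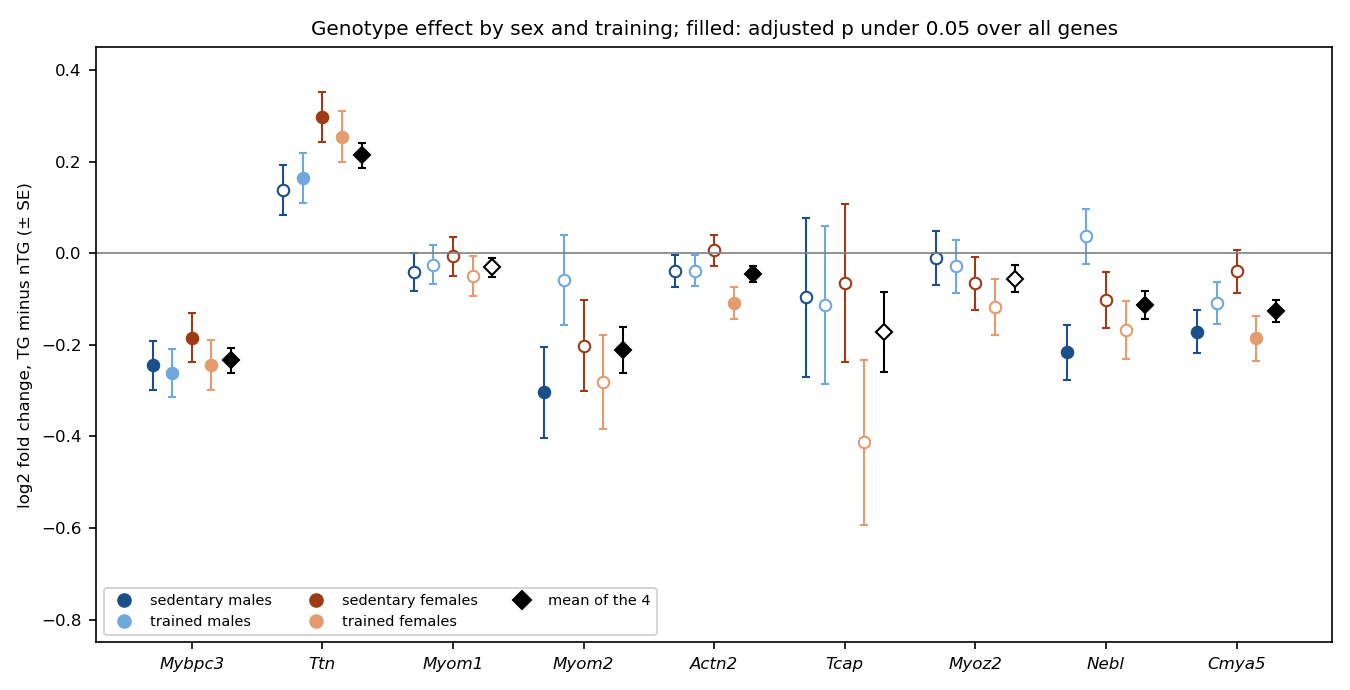
Log2 fold change of TG minus nTG (vertical axis, bars ± SE) for the 9 genes (horizontal axis) in sedentary and trained males and females, and the mean of the 4 (diamonds), with filled symbols for an adjusted p under 0.05 over all genes. Ttn is the only gene above 0 in all 5 estimates, and Mybpc3 is filled in all 5 below 0.

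Ttn and Mybpc3 counts were then set against each other within each library, a ratio chosen after their opposite directions had been seen and given without a test. The ratio of Ttn to Mybpc3 counts had group medians from 11.3 to 12.2 in the nTG groups and from 14.8 to 16.9 in the TG groups. Every TG library exceeded every nTG library among sedentary females (15.1 to 23.0 against 11.2 to 14.8) and trained females (14.5 to 18.1 against 10.2 to 14.2). Among males 8 of 9 sedentary and 7 of 8 trained TG libraries did. Long transcripts tended to be higher in TG hearts in these libraries: of 376 genes with at least 15 kilobases of exon and a mean of at least 50 counts, 124 were called higher and 54 lower, while of 354 genes under 1 kilobase, 35 were called higher and 119 lower. Over all lengths, 2609 of 13380 such genes were called higher and 3316 lower. Ttn ranked 25 among the 376 by its mean log2 fold change. Nebl, with 15.2 kilobases in the union of exons of its annotated transcripts, is among the 54 called lower. The part of transcript length in the Ttn result was not tested.

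**Figure D3:**
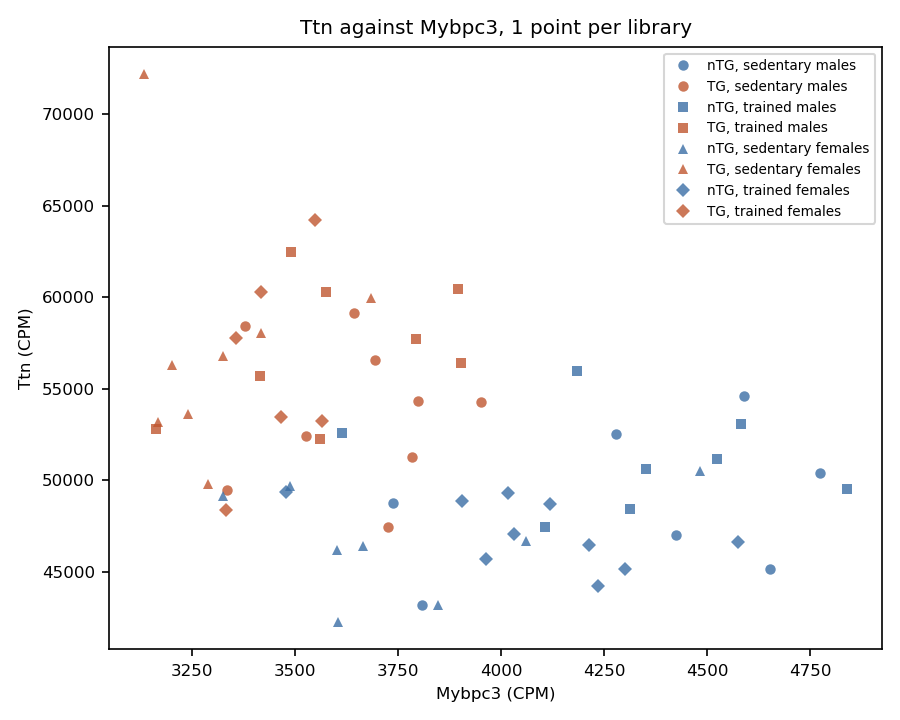
CPM of Ttn (vertical axis) against CPM of Mybpc3 (horizontal axis), 1 point per library, blue for nTG and red for TG, with the symbol giving sex and training; the axes do not start at 0. TG libraries lie mostly to the upper left of the nTG libraries of their sex and training, with the sedentary TG female of 72167 CPM of Ttn at the top.

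At the M-band, Myom2 was lower in TG hearts and Myom1 was not called. Myom2 (ENSMUSG00000031461, chromosome 8, bases 15057653 to 15133541, plus strand), the myomesin of fast and mature muscle, had a mean log2 fold change of -0.21 ± 0.05 (edgeR adjusted p 0.000438). In sedentary males it ranged from 1355 to 1969.7 CPM in nTG (median 1495) and from 981 to 1525 CPM in TG (median 1164), with 5 of 9 TG libraries below all nTG libraries. This was the only stratum with a call (-0.30 ± 0.10, adjusted p 0.0206), and without nTG sedentary male replicate 4, the library at 1969.7 CPM, the value was -0.23 and the call was lost. In trained females, nTG ranged from 1030.0 to 1812 CPM (median 1441) and TG from 969.9 to 1358 CPM (median 1258), a log2 fold change of -0.28 ± 0.10 that missed the threshold (adjusted p 0.0531). It was called without trained nTG female replicate 2 or 4 (-0.33 to -0.30), with DESeq2 (-0.27), with limma (-0.32) and with library number as a covariate (-0.30). The stratum values in trained males (-0.06 ± 0.10) and sedentary females (-0.20 ± 0.10) were not called either. Myom1 (ENSMUSG00000024049, chromosome 17, bases 71002633 to 71126856, plus strand), the myomesin found in striated muscle generally, stayed within 1491 to 2062 CPM in all 64 libraries, with a mean log2 fold change of -0.03 ± 0.02 (adjusted p 0.255). Exons of Myl12a overlap those of Myom1 on the opposite strand over 207 bases, and the strand setting of the counting is not given in the sources used here.

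Among the Z-disc genes, Nebl, Cmya5 and Actn2 were lower in TG hearts in the mean over strata, and Tcap and Myoz2 were not called. Nebl (ENSMUSG00000053702, chromosome 2, bases 17343909 to 17731464, minus strand) had a mean log2 fold change of -0.11 ± 0.03 (edgeR adjusted p 0.00221). Its sedentary males did not overlap: nTG ranged from 286 to 337 CPM (median 301) and TG from 237 to 276 CPM (median 264). The log2 fold change there was -0.22 ± 0.06 (adjusted p 0.00669), and Nebl was the only 1 of the 9 without overlap in that comparison, where 2.1% of all genes had none. In trained males, by contrast, nTG had 267 to 344 CPM (median 320.0) and TG 266 to 385 CPM (median 315), a value of 0.04 ± 0.06 that was not called. Sedentary females ranged from 258 to 329 CPM in nTG (median 289.9) and from 247 to 344 CPM in TG (median 263), with a value of -0.10 ± 0.06 (adjusted p 0.420). Trained females ranged from 289 to 347 CPM in nTG (median 311) and from 258 to 348 CPM in TG (median 268). There 5 of 6 TG libraries were below all nTG libraries and the sixth was above all of them, and the value of -0.17 ± 0.06 missed the threshold (adjusted p 0.0590). Without that sixth library, trained TG female replicate 6, it was -0.24 and was called, as it was without trained nTG female replicate 2 (-0.18), with limma (-0.21) and with library number as a covariate (-0.20).

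Cmya5 (ENSMUSG00000047419, chromosome 13, bases 93040713 to 93144724, minus strand) had a mean log2 fold change of -0.13 ± 0.02 (edgeR adjusted p 1.30e-05). Trained females did not overlap, with 1705 to 2011 CPM in nTG (median 1795) and 1511 to 1667 CPM in TG (median 1603). Of the 9 genes it was the only 1 without overlap there, against 2.57% of all genes. The log2 fold change was -0.19 ± 0.05 (adjusted p 0.00562). In sedentary males nTG ranged from 1595 to 2071 CPM (median 1826) and TG from 1493 to 1863 CPM (median 1607), with -0.17 ± 0.05 (adjusted p 0.00546). Trained males (-0.11 ± 0.05, adjusted p 0.112) and sedentary females (-0.04 ± 0.05, adjusted p 0.758) were not called. Without trained nTG male replicate 3, the value in trained males was -0.13 and was called. Exons of A630019I02Rik overlap those of Cmya5 on the opposite strand over 2451 bases, but that gene had a mean of only 23.3 counts per library.

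Actn2 (ENSMUSG00000052374, chromosome 13, bases 12269426 to 12340760, minus strand) barely moved. Its libraries lay between 1883 and 2448 CPM, and the mean log2 fold change was -0.04 ± 0.02 (edgeR adjusted p 0.0335), so that it fell by 3.066%. This call was lost with DESeq2 (adjusted p 0.0556), median-of-ratios factors (edgeR adjusted p 0.0691), scaling without mitochondrially encoded genes and Tnnt2 (0.0795) and genes of a mean of at least 50 counts (0.1101). It was also lost without any of 20 of the 64 libraries (adjusted p from 0.0505 to 0.0827). These were sedentary TG male replicates 1, 5, 6 and 9, sedentary nTG male replicates 4, 6 and 7, trained TG male replicates 4 and 6, trained nTG male replicate 4, sedentary nTG female replicates 1, 3, 4 and 6, sedentary TG female replicates 2, 3 and 6 and trained TG female replicates 4, 5 and 6. In trained females nTG ranged from 2088 to 2375 CPM (median 2195) and TG from 1883 to 2175 CPM (median 2057), with -0.11 ± 0.04 (adjusted p 0.0285). That call was lost without trained TG female replicate 2, 4 or 6 or trained nTG female replicate 6 (-0.10 to -0.09), without the sedentary TG male library with the highest blood share (-0.10), with only the 2 groups fitted (-0.09), with scaling without mitochondrially encoded genes and Tnnt2 (-0.09) and with genes of a mean of at least 50 counts (-0.08). Myoz2 (ENSMUSG00000028116, chromosome 3, bases 123006206 to 123035015, minus strand) lay between 317 and 489.8 CPM, and its mean log2 fold change was -0.06 ± 0.03 (adjusted p 0.129).

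Counted by stratum, sedentary males had 4 of the 9 genes called, all lower (Mybpc3, Myom2, Cmya5 and Nebl), where 20.6% of all genes were called (11.2% lower). Trained males had 2 of 9, Mybpc3 lower and Ttn higher, against 14% of all genes, and 0 of 9 without overlap, against 1.82%. Sedentary females had the same 2 of 9, against 4.37% of all genes, and 0 of 9 without overlap, against 0.52%. Trained females had 4 of 9, with Ttn higher and Mybpc3, Cmya5 and Actn2 lower, against 14.8% of all genes. No difference between the sexes in the genotype effect was called for any of the 9 genes, in sedentary or in trained mice (1 of 9 at an unadjusted p under 0.05 in each, and 0 of 9 called by DESeq2 or limma), by edgeR, nor for any of the 16913 genes (0% of genes, with 1471 and 910 at an unadjusted p under 0.05, 1 and 0 called by DESeq2 and 0 and 1 by limma).

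Markers of the heart's cell types moved along with these changes. Of 9 cardiomyocyte markers, Myh6, Myl2 and Pln among them, 7 were called lower in TG hearts and 0 higher in the mean over strata, with a median log2 fold change of -0.16. Of all genes, 20.5% were called lower and 18.5% higher in this mean. Their summed share of counts was 6.83% to 7.80% in sedentary TG males against 7.66% to 8.55% in sedentary nTG males, and 6.66% to 7.85% against 7.28% to 8.22% in trained males. In females it was 7.11% to 7.96% in sedentary TG against 7.92% to 8.696% in sedentary nTG mice, and 7.31% to 8.09% against 8.09% to 8.66% in trained mice. The groups overlapped most in trained males. All 7 fibroblast markers (median 0.41) and all 5 macrophage markers (median 0.41) were called higher. Summed fibroblast markers took 0.0809% to 0.152% of counts in sedentary TG males against 0.0726% to 0.103% in sedentary nTG males, and 0.0745% to 0.194% against 0.0585% to 0.0839% in trained males. In females they took 0.1002% to 0.144% in sedentary TG against 0.0868% to 0.157% in sedentary nTG mice, so that the TG range lay within that of nTG, and 0.101% to 0.133% against 0.0716% to 0.0998% in trained mice, without overlap. Of 6 blood markers, 0 were higher and 3 lower in the mean over strata, and 5 were lower in trained males, where 8.31% of all genes were. Summed blood markers took 0.0244% to 0.0534% of counts in trained TG males against 0.0533% to 0.109% in trained nTG males, and 0.0362% to 0.0635% in trained TG females against 0.0589% to 0.0808% in trained nTG females. In sedentary TG males they ranged from 0.0299% to 0.488%. Of 10 skeletal muscle markers, 8, Myh1, Myh2 and Myh4 among them, are not in the gene table, and the remaining 2 took at most 0.000770% of counts. The part of cell composition in the changes of the 9 genes was not tested.

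Genes that work with these 9 were followed through lists chosen with earlier results of these data known. Of 7 genes of the thick filament core, 2 were higher in TG hearts in the mean over strata and 3 lower, where 18.5% of all genes were called higher and 20.5% lower. The slow myosin heavy chain Myh7 rose by 1.06 ± 0.18 (edgeR adjusted p 2.84e-06) and Myh7b by 0.14 ± 0.05 (0.0307), while the main adult heavy chain Myh6 fell by 0.16 ± 0.03 on the log2 scale (5.84e-07) and the ventricular light chain Myl2 by 0.20 ± 0.03 (1.04e-06). Of 7 measured myosin-binding and M-band genes, 2 were higher and 2 lower, against the same shares of all genes. Mybpc2, the myosin-binding protein C of fast skeletal muscle, had a mean log2 fold change of 0.99 ± 0.08 (adjusted p 1.61e-16), opposite in direction to its cardiac paralog Mybpc3. It was called in each stratum, from 26.01 to 57.1 CPM (group means) in sedentary males, 25.2 to 51.4 CPM in trained males, 27.9 to 54.96 CPM in sedentary females and 26.2 to 46.6 CPM in trained females. Myom3, another myomesin, rose by 0.21 ± 0.06 (adjusted p 0.00411), while Fsd2 (-0.08 ± 0.02, 0.000366) and Lrrc39 (-0.12 ± 0.03, 0.00126), the latter a myosin-binding protein of the M-band, fell.

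Of 28 measured Z-disc genes outside the 9, 6 were higher in TG hearts and 10 lower in the mean over strata (18.5% and 20.5% of all genes). Xirp2 (0.29 ± 0.05, edgeR adjusted p 2.85e-06), an actin-binding protein of the intercalated disc and Z-disc, and Synpo2l (0.32 ± 0.06, 5.69e-06), an actin-bundling Z-disc protein, rose. The small heat shock protein Cryab (-0.27 ± 0.02, 1.49e-15), which protects titin and desmin, and the LIM-domain protein Fhl2 (-0.35 ± 0.03, 5.63e-13), which binds titin, fell. In trained males the Z-disc list had 8 lower and 0 higher, Ldb3 among them (-0.28 ± 0.04, adjusted p 7.37e-06), which links alpha-actinin and myozenins. Of all genes, 8.31% were called lower there and 5.65% higher. Trained females had 9 lower and 0 higher (9.43% and 5.37% of all genes), and sedentary males 2 lower and 4 higher (11.2% and 9.39% of all genes). Calls in sedentary females, where 4.37% of all genes were called, also went both ways. Among them, Synpo2l was higher (0.38 ± 0.11, edgeR adjusted p 0.0341) and Fhl2 (-0.30 ± 0.07, 0.00228) and Cryab (-0.18 ± 0.04, 0.00785) were lower. Of 6 measured titin-linked genes, the stretch-responsive ankyrin repeat genes Ankrd1 (0.51 ± 0.10, edgeR adjusted p 1.74e-05) and Ankrd23 (0.34 ± 0.06, 2.34e-06) rose in the mean over strata. The other 4 fell, among them the ubiquitin ligases Trim63 (-0.18 ± 0.03, 2.01e-07) and Trim55 (-0.22 ± 0.03, 4.41e-07). In this mean, 18.5% of all genes were called higher and 20.5% lower. Of 11 genes of sarcomere assembly, 0 were higher and 7 lower in the mean over strata (18.5% and 20.5% of all genes), with the pointed-end cap Tmod1 at -0.17 ± 0.02 (6.76e-11) and the serum response factor coactivator Myocd at -0.30 ± 0.03 (1.13e-10). Of 9 splicing factors that act on muscle transcripts, 0 were higher and 5 lower, against the same 18.5% and 20.5%, led by Rbfox1 (-0.28 ± 0.05, 8.03e-06) and Pcbp2 (-0.09 ± 0.02, 1.50e-05). Over the 6 lists the medians ran from -0.15 for the thick filament core to -0.02 for the Z-disc and M-band genes, where all genes had 0.01.

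The second question was what interval training changes within a genotype. In TG males, 2 of the 9 genes were called, both higher after training, where 18% of all genes were called (10.3% higher). Nebl rose from 237 to 276 CPM (median 264) in sedentary to 266 to 385 CPM (median 315) in trained TG males, with 7 of 8 trained libraries above every sedentary one. Its log2 fold change was 0.28 ± 0.06 (edgeR adjusted p 0.00169). Cmya5 rose from 1493 to 1863 CPM (median 1607) to 1596 to 1914 CPM (median 1759), by 0.13 ± 0.05 (adjusted p 0.0451). That call was lost in 12 of 17 fits without 1 library (sedentary TG male replicates 1 to 6 and 9 and trained replicates 1, 2, 3, 6 and 7), with values from 0.10 to 0.13, and with median-of-ratios factors, library number as a covariate or only the 2 groups fitted (0.12 in each). It was also lost with the replicate number as a block. In this comparison macrophage markers were lower in 4 of 5, blood markers in 6 of 6 and fibroblast markers in 2 of 7, and cardiomyocyte markers were higher in 2 of 9, where 7.6% of all genes were called lower and 10.3% higher. The part of these cells in the rise of Nebl and Cmya5 was not tested.

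In nTG males, 0 of the 9 genes were called (0 of 9 at an unadjusted p under 0.05), where 0% of all genes were (999 at an unadjusted p under 0.05, 4 called by DESeq2 and 1 by limma). In nTG females, 0 of 9 were called (4 of 9 at an unadjusted p under 0.05), where 0.148% of all genes were. The 4 were Actn2 (0.09 ± 0.03), Cmya5 (0.12 ± 0.04), Mybpc3 (0.12 ± 0.05) and Myom2 (0.23 ± 0.09), with adjusted p from 0.190 to 0.262. In TG females, 0 of 9 were called (0 of 9 at an unadjusted p under 0.05), where 0% of all genes were (606 at an unadjusted p under 0.05, 0 called by DESeq2 and 3 by limma). DESeq2 and limma called 0 of the 9 genes in each of these 3 comparisons. Whether the effect of training depends on genotype was tested as an interaction, and 0 of 9 genes were called by edgeR in either sex (0% of all genes; 1 of 9 in males and 2 of 9 in females at an unadjusted p under 0.05, 0 of 9 by DESeq2 or limma). Over all genes, 2503 in males and 1093 in females had an unadjusted p under 0.05, DESeq2 called 1 and 0, and limma 300 and 0. The largest such value by size among males was that of Nebl, 0.25 ± 0.09 (adjusted p 0.192), and the corresponding difference of training effects in TG mice, females minus males, was -0.24 ± 0.09 (adjusted p 0.141, from 0.0292 to 0.342 over the alternatives without the columns by name). For that contrast edgeR called 0% of all genes (3063 at an unadjusted p under 0.05), DESeq2 166 and limma 927. Limma called this difference of Nebl (-0.23), as did edgeR without trained TG female replicate 6 (-0.31). The rise of Nebl in trained TG males is thus not shown to differ from the change in nTG males or in TG females.

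Between the sexes, sedentary nTG females had lower Actn2 and Mybpc3 than sedentary nTG males, 2 of the 9 genes, where 2.22% of all genes were called. Actn2 ranged from 1952 to 2243 CPM in females (median 2063) and from 2129 to 2448 CPM in males (median 2295), with 6 of 8 females below all males and a log2 fold change of -0.15 ± 0.04 (edgeR adjusted p 0.00988). Mybpc3 ranged from 3324.5 to 4482.5 CPM in females and from 3737 to 4775 CPM in males, with 5 of 8 females below all males and a value of -0.20 ± 0.05 (adjusted p 0.0312). The Mybpc3 call was lost in 9 of 15 fits without 1 library (-0.20 to -0.18, sedentary nTG male replicates 1, 2, 4 and 7 and female replicates 1 to 5) and with the replicate number as a block. Both calls were lost when only these 2 groups were fitted (-0.20 for Mybpc3 and -0.15 for Actn2). Cmya5 (-0.14 ± 0.05, adjusted p 0.111) was called without sedentary nTG male replicate 5 (-0.16). Tcap, Myoz2, Ttn, Nebl, Myom1 and Myom2 were not called.

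Tcap (ENSMUSG00000007877, chromosome 11, bases 98383811 to 98384953, plus strand) stood apart from the other members by its spread between mice of 1 group. In trained nTG females it ranged from 405 to 1288 CPM (median 864) and in sedentary nTG females from 399.8 to 1016 CPM (median 814). Sedentary TG males had 402 to 916 CPM (median 685), whereas trained TG females lay within 604.5 to 705.5 CPM (median 682). For each member, the genes whose log2 CPM followed it most closely within groups were named from 13388 genes with a mean of at least 50 counts. They are the extremes of that search, so no p is given. For Tcap they were Dbp (Pearson's r 0.91, Spearman's rho 0.89), Usp2 (0.85, 0.84) and Nr1d1 (0.85, 0.86), and in the negative direction Nfil3 (-0.83, -0.81), over 64 libraries. All 4 are known as genes of the circadian clock or its output. Dbp itself ranged from 10.96 to 208 CPM over the 64 libraries, and its r with Tcap within single groups ran from 0.53 to 0.98, with the same sign in 8 of 8. Without the 2 libraries farthest from the median of the x axis, r was 0.89. Among core clock genes looked up after this was seen, Arntl had an r of -0.80 and Per3 of 0.80 with Tcap. Weaker ones included Per2 (0.75), Cry2 (0.74), Npas2 (-0.74), Clock (-0.72), Per1 (0.71) and Cry1 (-0.62). The time of day at which hearts were taken is not given in the sources used here.

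The mean genotype effect on Tcap was a log2 fold change of -0.17 ± 0.09 and was not called (edgeR adjusted p 0.113), and the effect in trained females was -0.41 ± 0.18 (adjusted p 0.113). An alternative chosen after seeing the data took the log2 CPM of Dbp, minus its group mean, as a covariate. The mean effect was then -0.15 ± 0.04 (edgeR adjusted p 0.000860) and that in trained females -0.35 ± 0.08 (adjusted p 0.00109). A covariate centred on each group holds no difference between groups, so these values were bound to lie close to those without it. Differences of Dbp between TG and nTG were thus not adjusted for. Both values passed the threshold with a smaller SE. Because Dbp was picked for its r with Tcap in these libraries, the smaller SE follows from that choice, and the 2 adjusted p-values are not evidence of a genotype effect. Over the other alternatives and this one, without the columns by name, the adjusted p ran from 0.000860 to 0.219 for the mean effect and from 0.00109 to 0.207 in trained females. Without trained nTG female replicate 4, the value in trained females was -0.50 and was called. Dbp was not called between TG and nTG in the mean over strata (0.34 ± 0.21, adjusted p 0.198). In the other 3 strata, Tcap was not called with or without the covariate.

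**Figure D4:**
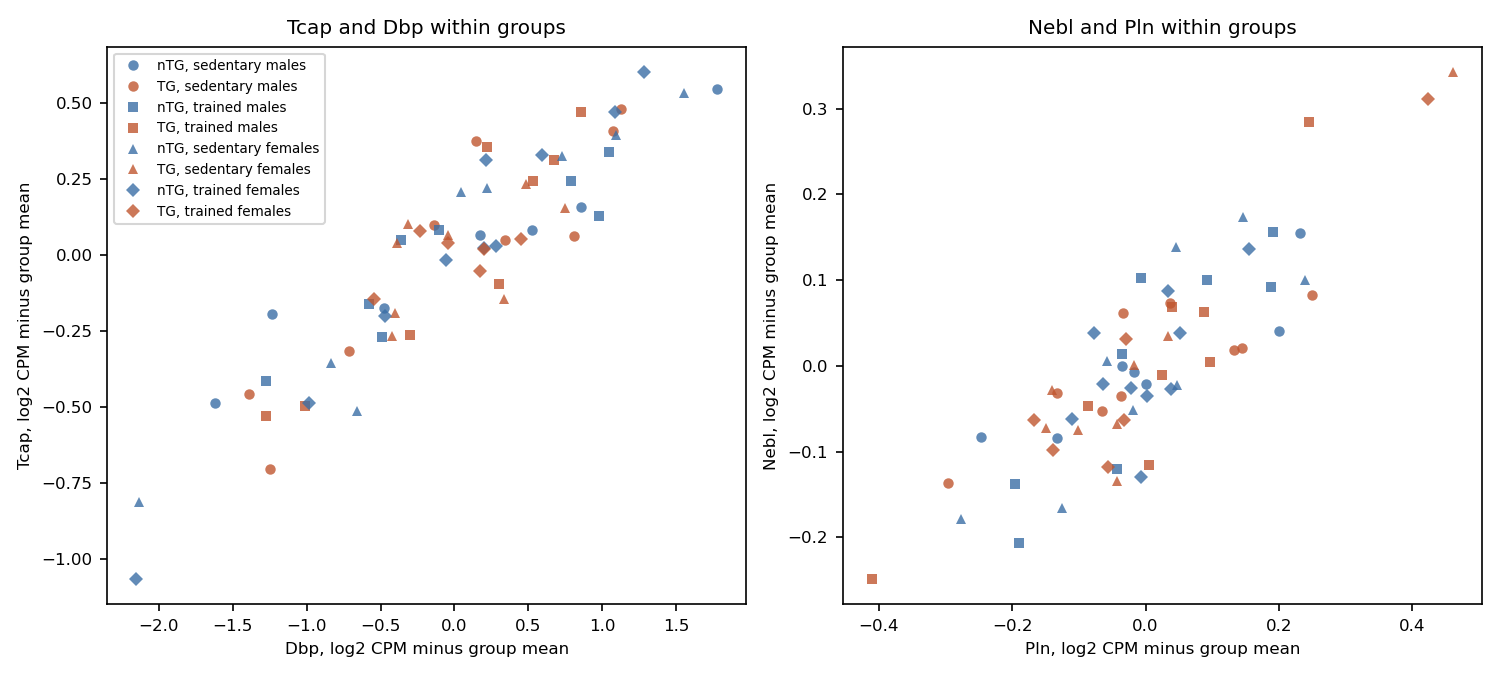
Left: log2 CPM of Tcap (vertical axis) against that of Dbp (horizontal axis), each minus its group mean, 1 point per library with the symbol and colour giving the group. Right: the same for Nebl against Pln. Both pairs rise together in every group, with r of 0.91 and 0.86 over 64 libraries.

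Nebl was followed most closely by Pln, the inhibitor of the calcium pump of the sarcoplasmic reticulum (r 0.86, rho 0.82), Trdn, triadin of the calcium release complex (0.84, 0.84), and Arhgap5 (0.84, 0.80), and in the negative direction by Plekho2 (-0.83, -0.81). The r of Nebl and Pln was between 0.60 and 0.945 within single groups and 0.81 without the 2 farthest libraries. In males Pln, like Nebl, had its lowest median in sedentary TG mice, with 2107 CPM in sedentary nTG, 1685 CPM in sedentary TG, 2156 CPM in trained nTG and 2232 CPM in trained TG males. Ttn was followed by Ralgapa1 (r 0.72, rho 0.64), dystrophin Dmd (0.70, 0.63) and the cytoskeletal crosslinker Macf1 (0.70, 0.63), and inversely by Sod3 (-0.73), an extracellular superoxide dismutase. Ralgapa1, Dmd and Macf1 have 12.3, 23.8 and 31.4 kilobases of exon. Without the 2 farthest libraries their r was 0.65, 0.62 and 0.61. Within single groups the r of Ralgapa1 ran from -0.12 to 0.93. Among the genes closest to Cmya5 were Nrd1 (0.80) and Rmnd5a (0.76). Myom1 was followed by the desmosomal gene Dsp (0.70), Actn2 by the desmosomal gene Pkp2 (0.67), Mybpc3 by Higd2a (0.62) and Pkp2 (0.62), Myom2 by Tmem71 (0.67) and Myoz2 by Abcb4 (0.75).

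The 9 genes were also compared with each other within groups. Of 36 pairs, 17 were past an adjusted p of 0.05 over the 36 by Pearson's r and all 17 were positive, 16 of them also by Spearman's rho (two-sided permutation test with 100000 draws of libraries within groups, 1e-05 being the smallest p they can give). The strongest were Myoz2 with Myom1 (r 0.74, rho 0.72, and 0.70 without the 2 farthest libraries), Actn2 with Mybpc3 (0.70, 0.70 and 0.74), Actn2 with Myom1 (0.64, 0.63 and 0.64) and Myom1 with Mybpc3 (0.64, 0.64 and 0.63), each with permutation p 1e-05 and adjusted p 9e-05 for r and rho. These 4 genes thus varied together from mouse to mouse. The r of Ttn was 0.07 with Mybpc3 (permutation p 0.585, adjusted 0.714) and 0.01 with Actn2 (0.930, adjusted 0.980), against 0.36 with Myoz2 (0.0072, adjusted 0.0162) and 0.33 with Myom1 (0.0169, adjusted 0.0358), the latter being the pair of the 17 not past the threshold by rho (0.28, adjusted 0.0749). Its highest r was with Cmya5 (r 0.52, rho 0.52, permutation p 2e-05 and 7e-05, adjusted 0.00012 and 0.00042, and r 0.51 without the 2 farthest libraries) followed by that with Nebl (0.46 and 0.38, permutation p 0.00079 and 0.00345, adjusted 0.00278 and 0.00955). The r of Ttn and Nebl was 0.29 without the 2 farthest libraries, so that it rests in part on those. Cmya5 and Nebl were correlated as well (r 0.46, rho 0.44, permutation p 0.00022 and 0.00055, adjusted 0.00088 and 0.00224). So were Cmya5 and Myom1 (r 0.46, rho 0.41, permutation p 0.00021 and 0.00142, adjusted 0.00088 and 0.00511), so that Cmya5 was not set apart from the 4 genes above. All of these share the libraries and their scaling.

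The members were also compared within groups with 6 measures of the library, the summed shares of 5 gene lists and the total count, which makes 54 relations, of which 10 were past an adjusted p of 0.05 over the 54 by Pearson's r (two-sided permutation test, draws of libraries within groups). The 4 positive ones were those of Nebl (r 0.48) and Cmya5 (0.35) with the share of mitochondrially encoded genes and of Nebl (0.39) and Tcap (0.33) with that of cardiomyocyte markers. By rho, those of Nebl alone were past the threshold among these 4. The 6 negative ones were those of Nebl, Cmya5 and Ttn with the fibroblast and macrophage shares. With the fibroblast share, Nebl had an r of -0.54 (rho -0.58, permutation p 1e-05 for both, adjusted 0.00027 and 0.00054, and r -0.45 without the 2 farthest libraries). Cmya5 had -0.57 (rho -0.48, permutation p 1e-05 and 9e-05, adjusted 0.00027 and 0.001215, and r -0.50 without the 2 farthest). Ttn had -0.39 (rho -0.37, permutation p 0.0012 and 0.00413, adjusted 0.009257 and 0.02977, and r -0.40 without the 2 farthest). With the macrophage share, the r was -0.55 for Nebl (rho -0.53, permutation p 2e-05 for both, adjusted 0.00036 and 0.00054), -0.51 for Ttn (rho -0.46, permutation p 8e-05 and 0.00025, adjusted 0.00108 and 0.0027) and -0.45 for Cmya5 (rho -0.38, permutation p 0.00024 and 0.00296, adjusted 0.00216 and 0.02664). Without the 2 farthest libraries these were -0.52, -0.52 and -0.34. Ttn, Nebl and Cmya5 thus varied with these marker shares as well as with each other. The part of these shares in their correlations was not tested. No member was past the threshold with the total count, the r being between -0.04 and 0.28.

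**Figure D5:**
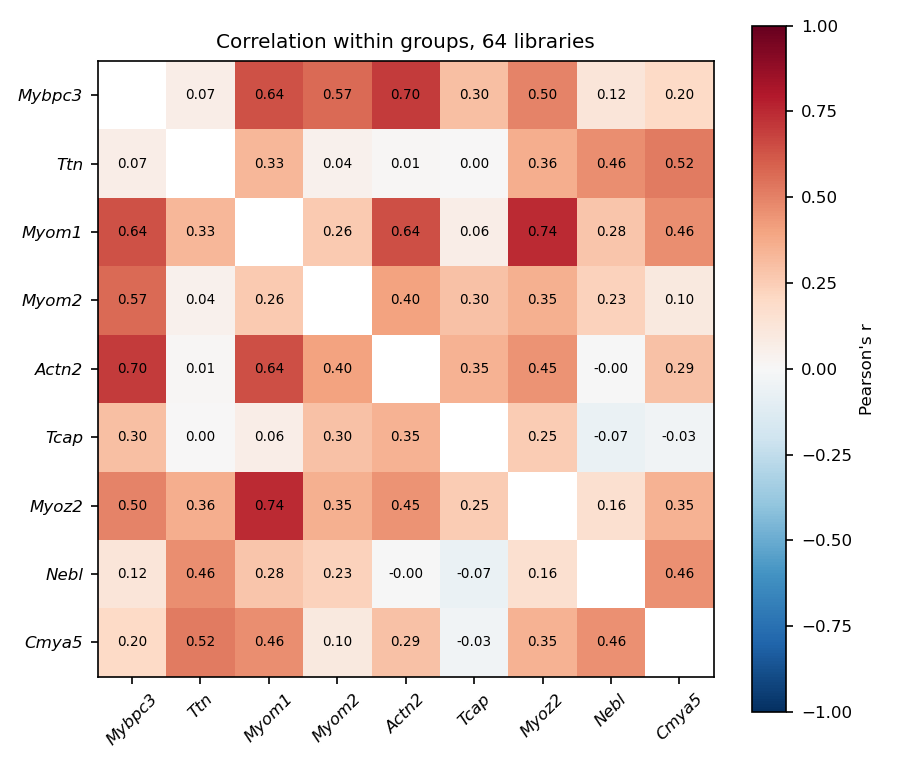
Pearson's r (colour and number) of log2 CPM minus the group mean for each pair of the 9 genes over 64 libraries. Mybpc3, Myom1, Actn2 and Myoz2 form a block of values from 0.45 to 0.74, while Ttn, Nebl and Cmya5 reach 0.46 to 0.52 with each other. Cmya5 also reaches 0.46 with Myom1.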

How the data were processed

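Heart RNA of 64 mice was sequenced after ribosomal RNA depletion. The deposited gene table holds raw counts of 16913 Ensembl genes and the deposited table of long non-coding RNAs holds expected counts of 3787 transcripts, 45 with values that are not whole, which were used for the join alone. Per the submitters' processing notes, cutadapt 2.3, STAR 2.7.8a and RSEM 1.3.3 were among the tools and GRCm38 (mm10) the build. Each library took the gene column with the highest Pearson's r of centred log2 CPM (pseudocount 0.5, mean of at least 20 counts, 389 autosomal transcripts in both tables). Symbols and exon lengths came from GENCODE M21, which matched 16879 genes. One edgeR 4.0.16 quasi-likelihood fit of 8 group means (TMM scaling, R 4.3.3) covered all genes, since the low-count filter removed none, with Benjamini-Hochberg adjustment over all genes at 0.05. Correlations used log2 CPM (prior count 2) minus the group mean. Alternatives used DESeq2 1.42.0, limma 3.58.1 (voom with sample quality weights), other scalings, filters and covariates, and left out each library in turn. The members and lists were chosen with earlier results of these data known. Named related genes are up to 2 rising and 2 falling per list with the smallest p past the threshold and a mean of at least 50 counts. The Dbp covariate, the clock genes other than those named as most alike, and the ratio of Ttn to Mybpc3 were chosen after their values were seen.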

Additional observations from a re-analysis of the deposited data

Results flagged for a closer look

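In 6 of 72 groups of values (9 genes in 8 groups), 1 library stood apart from the others of its group by the gap to its nearest neighbour; chance gives about 1 in 20, or 3.6 of 72. Sedentary TG female replicate 7 had 72167 CPM of Ttn against 49795 to 59963 CPM in the other 7 libraries of that group, and 344 CPM of Nebl against 247 to 278 CPM. Trained TG female replicate 6 had 348 CPM of Nebl against 258 to 286 CPM. Trained TG male replicate 7 had 2062 CPM of Myom1 against 1792 to 1918 CPM. Among sedentary nTG males, replicate 4 had 1969.7 CPM of Myom2 against 1355 to 1602 CPM, and replicate 5 had 341 CPM of Myoz2 against 389.6 to 426 CPM.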

How the results depend on the processing

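With the gene columns taken by their own names, which contradict sex or genotype in many libraries, 0 of the 9 genes were called in the 4 genotype strata, their mean, training of TG males and females against males. Genotype effects then reversed for Mybpc3 (0.0624 in sedentary and 0.0720 in trained males), Tcap (0.0234 and 0.0600 in sedentary and trained males, 0.0328 in sedentary females, 0.0185 in the mean), Cmya5 (0.0379 in trained males, 0.0284 in trained females), Ttn (-0.0699 and -0.0324 in trained males and females), Nebl (0.0231 in trained females) and, in the mean, Myom1 (0.0240) and Actn2 (0.0208). Training effects reversed for Mybpc3 (-0.20), Myom2 (-0.17), Cmya5 (-0.13) and Actn2 (-0.0136) in nTG females and for Myom1 (-0.0640) and Cmya5 (-0.0449) in TG males. The interactions of Cmya5 in females (0.0722) and Nebl in TG mice (0.0129) reversed, as did the female against male values of Mybpc3 (0.11), Myom1 (0.0397), Myom2 (0.0764), Cmya5 (0.0328) and Actn2 (0.0317). Tcap in sedentary females also reversed with limma (0.10) and ran from -0.157 to 0.0196 when 1 library was left out, the highest without nTG replicate 4. In sedentary males it ran from -0.167 to 0.0103, the highest without nTG replicate 7.

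With joined columns, limma called 1 of the 9 members in the training by sex contrast of TG mice. Training of TG males had 1 call with median-of-ratios size factors, with library number as covariate, without the library with the highest blood share, and when fitting only the 2 groups. Fitting only the groups compared left 1 call in sedentary females and 0 in females against males, and called 367 genes in sedentary females (739 in the fit of all groups, 1269 by limma). Females against males had 375 genes called, and 145 with only those groups. Training of nTG females had 25, 95 by DESeq2, 100 by limma, 13 with median-of-ratios factors, 11 with a mean of at least 50 counts, 5 with scaling without mitochondrially encoded genes and Tnnt2, 5 without the library with the highest blood share, 3 with the replicate block and 0 with only those groups (2338 at an unadjusted p under 0.05). Leaving out 1 library gave 5 to 6 called members for the mean genotype effect, 3 to 5 in sedentary males, 1 to 3 in trained males, 1 to 2 in sedentary females, 3 to 6 in trained females, 1 to 2 for training of TG males, 0 to 1 for training by sex in TG mice, 1 to 3 for females against males and 0 to 0 in the others. The causes were not tested. The Actn2 mean effect was lost with DESeq2 (-0.04), median-of-ratios factors (-0.04), a mean of at least 50 counts (-0.03) and scaling without mitochondrially encoded genes and Tnnt2 (-0.04).

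Same-numbered libraries showed little common variation: of 65 pairs, 16 had an r over 0.1 (range -0.29 to 0.34) and 6 correlated best with their own number. The highest median r, 0.13, was that of females against males. There 4 of 7 pairs had an r over 0.1 and 2 correlated best with their own number. With the replicate number as a block, 6 members were called for the mean genotype effect, 1 for training of TG males (Cmya5 lost at 0.13) and 1 for females against males (Mybpc3 lost at -0.19); no other member call changed. Each library held 34574813 counts or more, so that counting error was small for these genes.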
